A study of Bos taurus with 6 samples.

Results

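Interferon-stimulated genes were examined in the intramuscular fat (IMF) of castrated (steers) and intact (bulls) male Qinchuan cattle. They were taken from the mRNA count table by symbol. A row was included if its symbol had a digit after IFI, ISG or GBP, or began with IFIT or OAS, or was on a list of 21 further antiviral genes, and IFI30 was left out. The rule found 43 of the 25444 genes in the table, 20 of them through the list. DHX58, the remaining gene of that list, is not analysed here. Reads were counted on 42 of the 43 genes, and IFITM10 had 0 counts in both libraries.

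Each group was represented by 1 mRNA library of pooled IMF RNA, dissected from the sternomandibularis muscle at 24 months of age. The steers had been castrated by surgery at 6 months and the bulls were left intact, and both groups were weaned at 3 months, shared 1 sire and received the same feed. The design text gives 6 animals per pool, whereas the sample descriptions give 3. Counts sum to 12677375 in steers and 9868415 in bulls. With 1 library per group there is no replicate check, so that every comparison below is between 2 pooled libraries and not between the conditions. Transcripts of fat cells were plentiful in both pools, with 4513 counts of ADIPOQ in steers and 6651 in bulls, and muscle transcripts were present too, with 13852 and 19910 counts of ACTA1.

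Type I interferons are secreted when cells sense foreign or misplaced nucleic acid. They bind the IFNAR1 and IFNAR2 receptor, and interferon gamma binds IFNGR1 and IFNGR2. The receptors act through JAK kinases and STAT factors, which switch on a large set of genes that sense RNA or DNA, block translation, degrade nucleic acid or restrain pathogens. Many of these genes have a basal level in fat and vascular cells, whereas leukocytes often hold more of them, which was not tested here. Among members counted in both libraries, those that differed most were the guanylate-binding proteins GBP4 and GBP7, the nucleic acid sensor ZBP1, OAS2, IFIT2 and the nucleotide hydrolase SAMHD1, all 5.04-fold or more lower in steers. At the other end, 14 of the 42 members had log2 fold changes within 0.5 of 0, among them MX1, OAS1, STAT2 and CMPK2.

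A gene was called when an exact binomial test on its pair of counts passed at a Benjamini-Hochberg adjusted value under 0.05, over all 17752 genes that had a count, and the scaled counts differed by more than 1 on the log2 scale. By this rule 18 of the 42 genes (42.9%) were called lower in steers and 0 were called higher. Over all genes, 8.13% were called lower and 4.37% higher. Among genes with at least 50 counts over both libraries, where a difference is easier to detect, 16 of 36 members (44.4%) were called lower compared with 8.22% of all such genes, and 3.88% of all such genes were called higher. Without the fold threshold, 27 members (64.3%) were called lower compared with 18.3% of all genes, and 3 (7.14%) were called higher compared with 19.9%, the latter being MX1, IFIT5 and ISG20L2. The median log2 fold change of the members was -0.94, and that of all genes with a count was 0.01. It was -0.76 when the genes with 0 counts in steers were set at a floor of 3 counts, and -0.75 among members with at least 50 counts. In total the members took 5403 counts in steers and 7446 in bulls, or 5179 and 7768 after scaling.

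**Figure D1:**
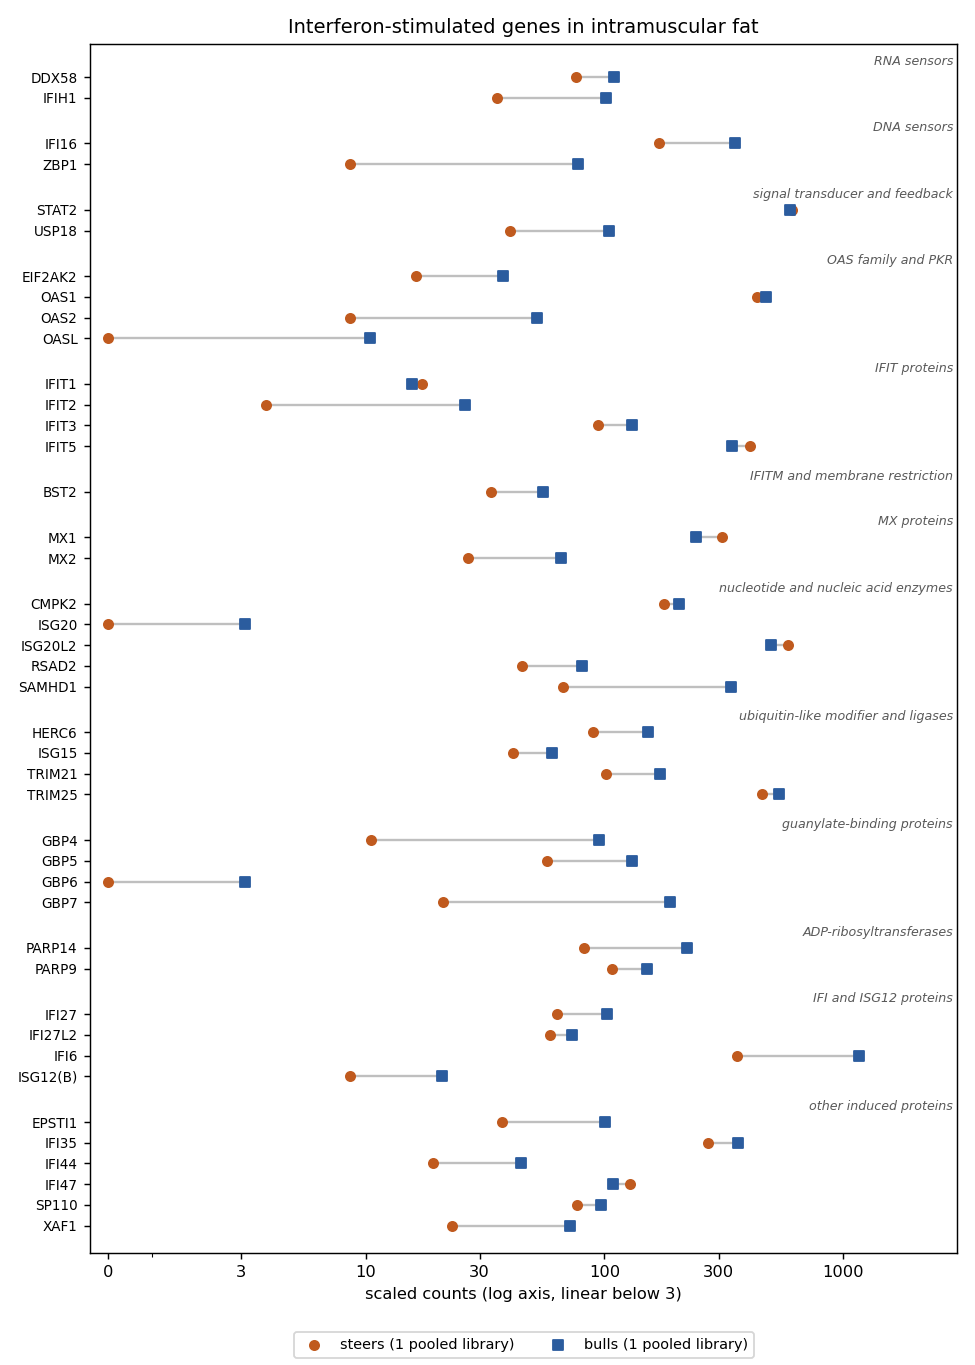
Scaled counts (x axis, log scale that is linear below 3) of the 42 interferon-stimulated genes with a count, in the pooled library of steers (circles) and that of bulls (squares), grouped by role. The bulls lie to the right for 36 of the 42 genes, and were higher for 8753 of all 17752 genes with a count. Among genes counted in both libraries the widest gaps are in GBP4, GBP7, ZBP1, IFIT2, OAS2 and SAMHD1, while OASL, ISG20 and GBP6 lie at 0 in steers. MX1, IFIT5, ISG20L2, IFI47, IFIT1 and STAT2 lie slightly further right in steers, an order that turns for STAT2, IFIT1 and ISG20L2 under scaling by total counts.

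Among the RNA sensors, IFIH1 (MDA5), which recognises long double-stranded RNA, had 37 counts in steers and 97 in bulls. It was called lower, with a log2 fold change of -1.51 and a 95% counting interval of -2.10 to -0.95. DDX58 (RIG-I), which recognises RNA ends that lack a host cap, had 79 and 105 counts and was not called at -0.53 (-0.97 to -0.10). Both sensors signal through the same mitochondrial adaptor, MAVS, and their intervals overlapped narrowly. ZBP1, a sensor of nucleic acid in the Z form that can trigger necroptosis, had 9 counts in steers compared with 74 in bulls and was called lower at -3.16 (-4.35 to -2.16). IFI16, which binds DNA in the nucleus and cytosol, had 177 and 337 counts and was called at -1.05 (-1.32 to -0.78), close to the fold threshold.

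STAT2, which acts with IRF9 in the factor that drives most type I interferon responses, had 633 and 575 counts. It stood at 0.02 (-0.15 to 0.18), a difference not detectable beyond the counting error, and at -0.22 under scaling by total counts. USP18, which removes ISG15 from proteins and dampens signalling at the type I receptor, had 42 counts in steers compared with 100 in bulls and was called lower at -1.37 (-1.93 to -0.84). The intervals of these genes, a transducer and a feedback inhibitor of the same pathway, did not overlap.

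The OAS enzymes make oligoadenylates that activate RNase L. OAS1 was counted 455 times in steers and 454 times in bulls, which corresponds to -0.12 on the log2 scale (-0.31 to 0.07). OAS2 had 9 and 50 counts and was called lower at -2.60 (-3.81 to -1.56). OASL was at 0 in steers with 10 counts in bulls. It was called. It was at least 3.63-fold lower when the 0 is replaced by the floor of 3 counts per library and the 10 counts are taken as they stand, and the counting interval, which covers the error of both libraries, ended at -1.29 on the log2 scale. RefSeq lists 3 OAS1 copies in cattle, so the OAS1 row may hold reads of any of them and is uncertain. EIF2AK2 (PKR), a kinase that halts translation when it binds double-stranded RNA, had 17 and 36 counts and was called lower at -1.20 (-2.13 to -0.34). The call of EIF2AK2 was lost with 5 counts added to each library, where its value no longer passed the fold threshold.

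The IFIT proteins bind foreign RNA and hold back its translation. IFIT2 had 4 counts in steers compared with 25 in bulls and was the only one of the 4 that was called, at -2.77 (-4.75 to -1.23). IFIT3 had 98 and 125 counts (-0.47, interval -0.87 to -0.08), and IFIT1 had 18 and 15 counts (0.14, interval -0.93 to 1.23, turning to -0.10 under scaling by total counts). IFIT5, the member of the family with the most counts, had more in steers (424) than in bulls (326), at 0.26 (0.05 to 0.47), and its value was 0.02 under scaling by total counts. BST2 (tetherin), which holds budding virus particles at the cell surface, had 35 and 53 counts and was not called at -0.72 (-1.38 to -0.08).

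The MX proteins are dynamin-like GTPases that trap viral nucleoproteins. MX1 had 325 counts in steers compared with 232 in bulls and MX2 had 28 and 63. MX1 was not called at 0.36 (0.12 to 0.61), a value of 0.12 under scaling by total counts, while MX2 was called lower at -1.29 (-1.99 to -0.63). MX1 was the member with the highest log2 fold change.

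SAMHD1, which breaks down deoxynucleotides and so starves reverse transcription, had 70 counts in steers compared with 324 in bulls and was called at -2.33 (-2.73 to -1.96), which is 5.04-fold lower in steers. RSAD2 (viperin) makes a chain-terminating nucleotide and CMPK2 is a nucleotide kinase. RSAD2 had 47 and 77 counts (-0.83, interval -1.39 to -0.29) and CMPK2 had 185 and 196 (-0.21, interval -0.50 to 0.09), and neither was called. The exonuclease gene ISG20 had 0 and 3 counts, too few for a fold. ISG20L2, a nucleolar exonuclease named for its similarity to ISG20, had 609 and 475 counts. It stood at 0.24 (0.06 to 0.41), which was -0.0029 under scaling by total counts.

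ISG15 is a small ubiquitin-like protein that is attached to other proteins, and it had 43 counts in steers and 58 in bulls. Its value of -0.55 had an interval of -1.16 to 0.04 that included 0. HERC6, a ligase of the same modification system, had 93 and 146 counts (-0.77, interval -1.16 to -0.39). TRIM21, an intracellular antibody receptor and ubiquitin ligase, had 106 and 163 counts (-0.74, interval -1.11 to -0.38), and TRIM25, a ubiquitin ligase in the RIG-I pathway, had 477 and 514 (-0.23, interval -0.41 to -0.05). All 4 of these genes lay below 0 and none was called, although under scaling by total counts HERC6 was called at -1.01.

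The guanylate-binding proteins are GTPases that coat the vacuoles of intracellular pathogens and are strongly induced by interferon gamma. GBP4 had 11 counts in steers and 91 in bulls, GBP5 had 60 and 125, and GBP7 had 22 and 181. All 3 were called lower, GBP4 at -3.17 (-4.22 to -2.26), GBP5 at -1.18 (-1.65 to -0.73) and GBP7 at -3.16 (-3.87 to -2.52). GBP6 had 0 and 3 counts, too few for a fold. The family took 93 counts in steers and 400 in bulls, 4.68-fold more in bulls after scaling. These genes are close paralogs and the counting program is not given in the sources used here, so that reads could be shared among them.

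PARP9 and PARP14 are ADP-ribosyltransferases that act in interferon signalling. PARP14 had 86 counts in steers compared with 212 in bulls and was called lower at -1.42 (-1.80 to -1.06), while PARP9 had 112 and 145 and was not called at -0.49 (-0.86 to -0.13). IFI6, a small membrane protein that opposes cell death, had the most counts of all members in bulls, 1115 compared with 375 in steers, and was called at -1.69 (-1.87 to -1.52). Its relatives IFI27, with 66 and 98 counts (-0.69, interval -1.17 to -0.23), and IFI27L2, with 62 and 70 (-0.30, interval -0.81 to 0.22), were not called. ISG12(B) had 9 and 20 counts and a value of -1.27 (-2.59 to -0.07), past the fold threshold but not called. The sequences of IFI27, IFI27L2 and ISG12(B) are related, and their counts could be shared.

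XAF1, which promotes apoptosis by opposing its inhibitor XIAP, had 24 counts in steers compared with 69 in bulls and was called lower at -1.65 (-2.38 to -0.96). EPSTI1 had 39 and 96 counts and was called at -1.42 (-2.00 to -0.87), and IFI44 had 20 and 43 and was called at -1.23 (-2.07 to -0.43). IFI35, a cytosolic partner of NMI, had 283 and 348 counts and was not called at -0.42 (-0.65 to -0.19). SP110, a nuclear body protein, had 80 and 93 counts (-0.34, interval -0.79 to 0.11). IFI47, an immunity-related GTPase, had 134 and 104 counts and stood at 0.24 (-0.14 to 0.63), or 0.0043 under scaling by total counts.

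**Figure D2:**
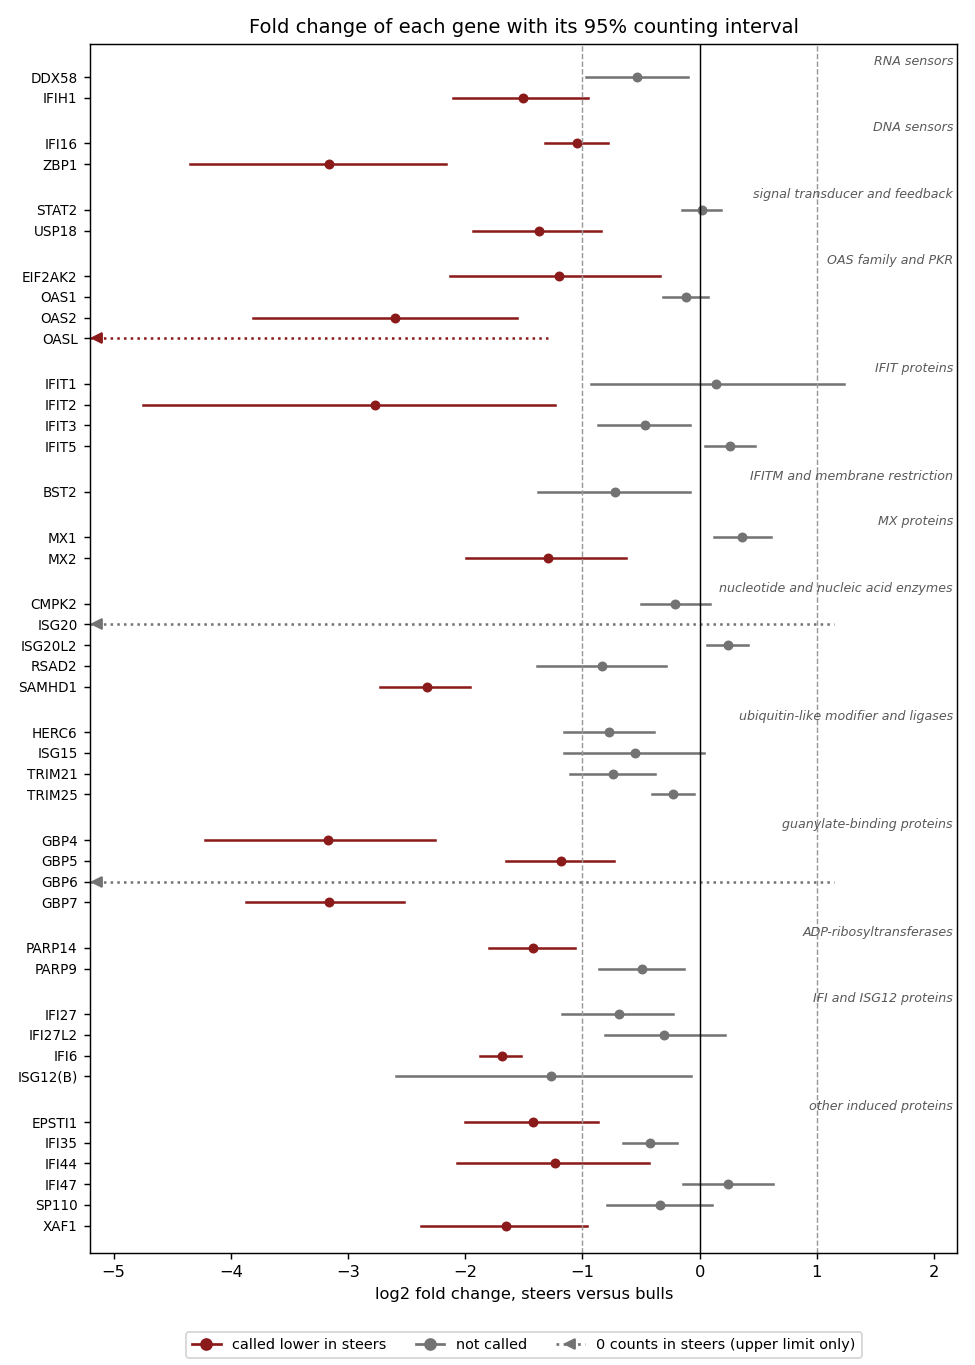
Log2 fold change of steers versus bulls (x axis) for the 42 genes with a count, with 95% Clopper-Pearson intervals that cover counting error only. Dark red marks the 18 genes called lower and grey the others, dashed lines stand at -1 and 1, and dotted lines end at the upper limit of the 3 genes with 0 counts in steers. GBP4, GBP7, ZBP1, IFIT2, OAS2 and SAMHD1 lie furthest left among genes counted in both libraries, and the intervals of MX1, IFIT5 and ISG20L2 lie above 0.

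Over the members, the interval lay below 0 for 29 genes, included 0 for 10 and lay above 0 for 3. These intervals are not adjusted for the number of genes. Their shares over all genes are not given, so nothing is read from these counts. Scaling by total counts moved every value by -0.24, and with it STAT2, IFIT1 and ISG20L2 turned below 0. Counts grow with transcript length, so they do not rank the genes by level.

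Some members lie next to each other on the chromosome, and 8 such pairs, with at most 2 protein-coding genes between, were found in the RefSeq gene table. The ratio of the counts within a pair does not depend on how the libraries were scaled. MX2 and MX1 are neighbours on chromosome 1, and the ratio of MX2 to MX1 was 0.0862 in steers and 0.272 in bulls, which makes the ratio of steers 0.317 times that of bulls (95% exact interval 0.190 to 0.521). The OAS1 row was placed on chromosome 17 through an older symbol and may hold reads of any OAS1 copy. There the ratio of OAS2 to OAS1 in steers was 0.180 times that in bulls (0.0768 to 0.375). For IFIT2 and IFIT3 on chromosome 26 the corresponding value was 0.204 (0.0502 to 0.622), and for IFIT3 and IFIT5 it was 0.603 (0.441 to 0.824). PARP9 and PARP14 flank DTX3L on chromosome 1, and the ratio of PARP9 to PARP14 was 1.90 times as high in steers (1.32 to 2.75). For RSAD2 and CMPK2 on chromosome 11 the value was 0.647 (0.417 to 0.998). For the pairs of IFI27 with ISG12(B) and with IFI27L2 on chromosome 21, the intervals included 1. The interval left out 1 for 6 of 8 pairs. It did so for 45.2% of the 9734 pairs of neighbouring genes over the whole table that were counted in both libraries, so that such differences were common in these libraries, and with 8 pairs, some sharing a gene, nothing is read from the count.

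**Figure D3:**
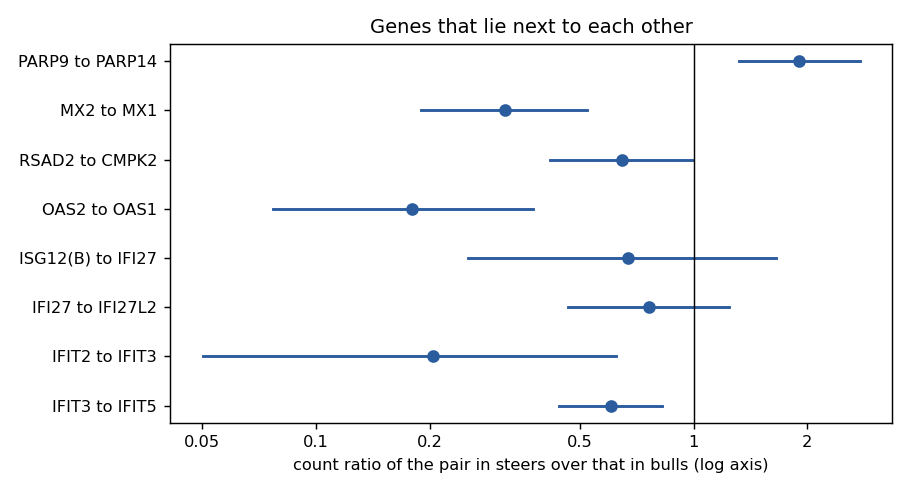
Count ratio of each pair of neighbouring genes in steers divided by the same ratio in bulls (x axis, log scale), with 95% exact intervals that cover counting error only. The vertical line at 1 marks pairs whose genes had the same fold change, and OAS2 to OAS1, IFIT2 to IFIT3 and MX2 to MX1 lie furthest below it.

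The other genes of the pathway were taken from lists of their roles. For the ligands, 13 interferon genes were in the table, among them IFNB1, IFNG and IFNW1, and each had 0 counts in both libraries. A count of 0 allows up to 3 of the 12677375 counts in steers and 3 of the 9868415 in bulls, for counting error only, and interferon transcripts were not detectable at this depth. For the receptors and their kinases and STAT factors, 1 of 11 genes was called lower and 0 higher, with a median of -0.25. This share of 9.09% was close to the 8.13% of all genes called lower. The called gene was IFNAR1, a chain of the type I receptor, with 162 and 313 counts and a value of -1.07. The genes of the list with the most counts were JAK1 (3427 and 3461 counts, -0.14), IFNGR2 (2085 and 1937, -0.02) and STAT3 (1971 and 1747, 0.05). IRF9 (419 and 458 counts) was at -0.25 and was not called.

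For sensing adaptors and kinases, 4 of 14 genes (28.6%, compared with 8.13% of all genes) were called lower and 0 higher, with a median of -0.75. They were TLR7, an endosomal receptor for single-stranded RNA (6 and 147 counts, -4.74), TMEM173, the adaptor STING of DNA sensing (154 and 560 counts, -1.98), the kinase gene IKBKE (50 and 172 counts, -1.90) and IRF5 (227 and 716 counts, -1.78). MYD88 (907 and 1129 counts, -0.44) and IRF3 (542 and 607 counts, -0.29) were not called, and neither was MAVS at 0.17. For the enzymes that attach ISG15, 0 of 3 genes were called in either direction. UBA7 was at -0.72, UBE2L6 at 0.13 and HERC5 at 0.61, from 395 and 596, 413 and 347, and 40 and 24 counts.

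For feedback inhibitors, 3 of 6 genes (50%, compared with 8.13% of all genes) were called lower and 0 higher, with a median of -1.24. They were SOCS3 (69 and 233 counts, -1.88), the phosphatase gene PTPN6 (430 and 1242 counts, -1.65) and SOCS1 (14 and 38 counts, -1.56), while PTPN2 at -0.65 and PIAS1 at -0.95 were not called. The genes typically induced by interferon gamma had the lowest median of the pathway lists, -1.86, and 12 of 17 (70.6%) were called lower and 0 higher. They included the chemokine genes CXCL9 (1 and 147 counts), CXCL10 (0 and 177) and CXCL11 (0 and 22). The others were IDO1, which degrades tryptophan (23 and 375 counts, -4.15), CD274 (2 and 17 counts, -3.21), the proteasome subunits PSMB9 (121 and 471 counts, -2.08) and PSMB8 (-2.00), CIITA, the activator of MHC class II genes (132 and 503 counts, -2.05), the peptide transporter TAP1 (-1.75), IRF8 (-1.87), SOCS1 and IRF1 (-1.29). TAPBP (1843 and 1829 counts, -0.11) and WARS (1435 and 2555 counts, -0.95) had the most counts of this list and were not called, and neither was ICAM1 (576 and 762 counts, -0.53).

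Of 27 other interferon-induced genes with a count, 10 (37%, compared with 8.13% of all genes) were called lower and 0 higher, and the median was -0.74. PSMB8, PSMB9 and TAP1 are shared with the interferon gamma list. The remaining 7 were TRIM34 (2 and 23 counts, -3.65), TRIM5 (58 and 211 counts, -1.99), SAMD9 (17 and 57 counts, -1.87), SP100 (34 and 97 counts, -1.63), TNFSF10 (61 and 162 counts, -1.53), DTX3L (120 and 223 counts, -1.02) and LGALS9 (595 and 1102 counts, -1.01). The genes with the most counts, LGALS3BP (3443 and 2105 counts, 0.59), ZNFX1 (1344 and 1435 counts, -0.22) and LGALS9, had values on both sides of 0.

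Markers of leukocytes differed between the libraries together with these genes. In a list of 8 genes common to leukocytes, 8 were called lower in steers, with a summed scaled count of 1151 in steers and 6169 in bulls, a median of -2.40 and none at 0. For T lymphocytes 15 of 17 genes were called lower (summed scaled counts of 210 and 1438), with CD3G and CD7 at 0 in steers. For NK and cytotoxic cells the count was 8 of 10 (51.8 and 784), with GNLY, KLRD1, KLRK1, GZMA, GZMB and GZMK at 0 in steers. For myeloid cells it was 10 of 12 (19903 and 47119), with none at 0. For B lymphocytes it was 4 of 8 genes with a count (57.5 and 344), with MS4A1 and CD79B at 0 in both libraries and PAX5 at 0 in steers, and for plasmacytoid dendritic cells 2 of 4 (332 and 537), with SPIB and GZMB at 0 in steers. Over all genes 8.13% were called lower and 4.37% higher, and in all these lists 0 genes were called higher. By contrast, 0 of 11 endothelial genes were called in either direction (14512 and 14315, median -0.09). The part of leukocytes in the values of the interferon-stimulated genes was not tested, and in bulk RNA fewer cells of a type and less RNA per cell cannot be told apart.

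The smallest fall in the list of common leukocyte genes was that of VAV1, at -1.97 with 0.5 counts added to each library. On the same scale 9 interferon-stimulated genes lay below it, namely OASL, GBP7, GBP4, ZBP1, ISG20, GBP6, IFIT2, OAS2 and SAMHD1, and the other 33 lay above it. OASL rests on 0 counts in steers and 10 in bulls, and ISG20 and GBP6 rest on 3 counts in bulls. The counting intervals of OASL, ISG20, GBP6, IFIT2, OAS2 and SAMHD1 reached above -1.97, that of OASL ending at -1.29. Those of GBP7, GBP4 and ZBP1 ended below it. The share of all genes below VAV1 is not given. In other leukocyte lists some markers fell less than VAV1, among them CD163 (-0.64) and CSF1R (-0.92), so the split into 9 and 33 depends on the marker chosen. Medians of the leukocyte lists, with 0.5 counts added, ran from -1.71 for B lymphocytes to -4.38 for NK and cytotoxic cells. The order depends on the genes with 0 counts in steers, which are 6 of 10 in the NK and cytotoxic list. With such genes set at the floor of 3 counts, the median of that list was -2.15. At the floor the T lymphocyte list was lowest, at -2.98. The plasmacytoid dendritic list was then highest, above that of B lymphocytes (-1.66). For the remaining tissue, 2 of 9 adipocyte genes (22.2%) were called lower and 1 (11.1%) higher, with RETN at 0 in steers (29405 and 34953, median -0.02). In the skeletal muscle list 3 of 12 genes (25%) were called lower and 1 (8.33%) higher (34306 and 55143, median -0.57). In the fibroblast and matrix list 0 of 8 were called lower and 2 (25%) higher (1126460 and 582717, median 0.69). The shares over all genes were 8.13% lower and 4.37% higher.

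**Figure D4:**
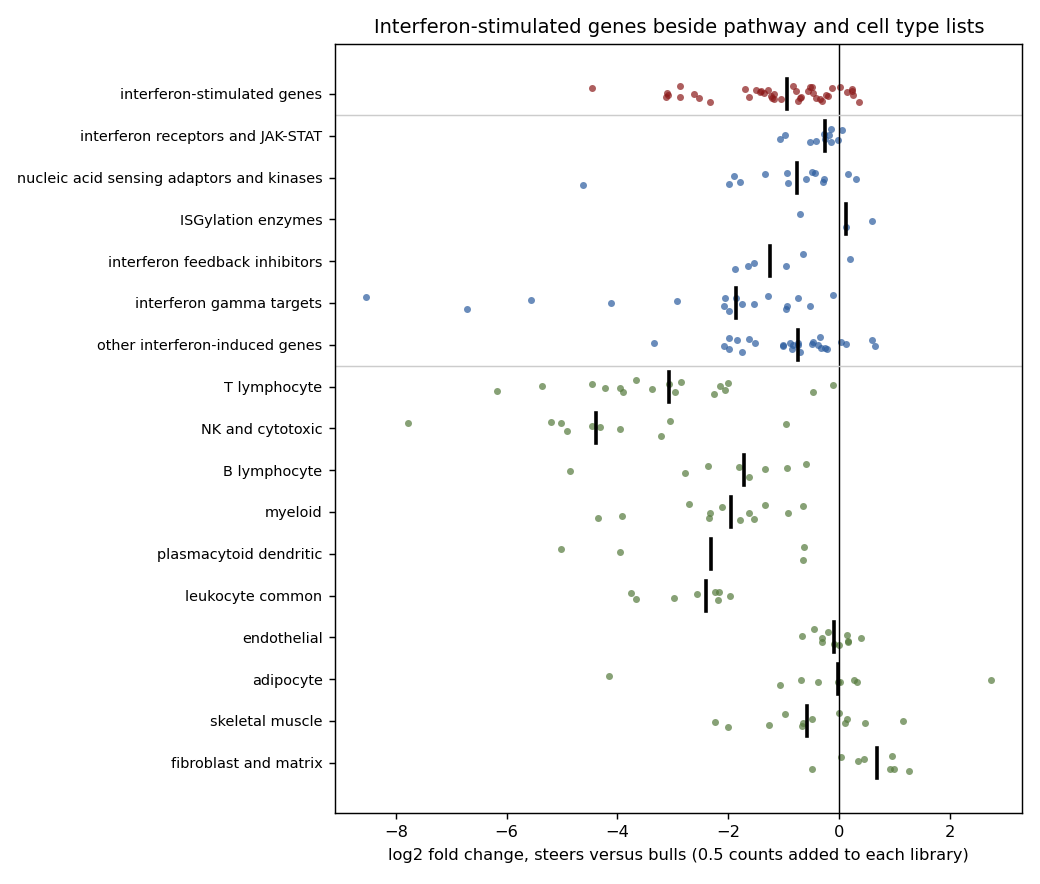
Log2 fold change of steers versus bulls (x axis, 0.5 counts added to each library) for every gene with a count in each list, with black bars at the list medians. The interferon-stimulated genes (top, median -0.94) lie between the receptor and JAK-STAT list (-0.25) and the interferon gamma list (-1.86), and the leukocyte lists lie lower than the endothelial list (-0.09).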

How the data were processed

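IMF RNA was sequenced in 1 pooled mRNA library per group on an Ion Proton. The authors removed adaptors and low-quality reads and aligned the rest to a bovine genome with MapSplice. What they deposited for each gene is an unnormalized count of reads. Which program counted them, and whether strand was used, is not given in the sources used here. The submitters' processing notes list a human genome build, with no role stated. The 4 small RNA libraries were not used here.

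Median-of-ratios size factors were 1.04 for steers and 0.959 for bulls (numpy 2.4.6). Each gene had a two-sided exact binomial test, doubling the smaller tail (scipy 1.17.1), with Benjamini-Hochberg adjustment over genes with 1 count or more. Calls needed an adjusted value under 0.05 and an absolute log2 fold change above 1. The test compares libraries and knows counting error only, and so do the 95% Clopper-Pearson intervals, since reads are not independent molecules. Medians use 0.5 counts added to the scaled counts. Ratios of neighbours have conditional exact intervals. The script was tested on data simulated with counting error alone, so that test does not cover variation between pools.

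The members and lists were chosen with earlier results of these data known. Counts are given for every member, and fold changes for those called or with at least 50 counts over both libraries. From each pathway list the called genes and the 3 with the most counts are named. The fold changes of IFIT1 and ISG12(B), and MAVS and IRF9, were added after their values were seen. Of the 43 symbols, 37 are current RefSeq symbols in the ARS-UCD2.0 gene table and 1 (OAS1) is an older symbol. The other 5 (DDX58, IFIT1, BST2, GBP6 and GBP7) had no match, so their names were not checked against it. That table is of another build than the files and served only for names and neighbours. No promoter or protein sequences were used here, and a planned count of promoter motifs was not made.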

Additional observations from a re-analysis of the deposited data

How the results depend on the processing

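The 18 members called lower in steers were all kept under scaling by total counts, TMM or upper-quartile factors. They were also kept with a minimum of 10 counts, which each of them meets. With the fold threshold alone they stay by construction, since dropping the other condition cannot remove a call. With edgeR 4.0.16 (exact test) and an assumed biological coefficient of variation of 0.1 between pools, 17 of the 18 were kept. At 0.2, 10 were kept, namely GBP4, GBP7, XAF1, ZBP1, IFI6, SAMHD1, OAS2, PARP14, IFIT2 and IFIH1, and at 0.4 the count was 0. Over all genes the same assumption gave 762 lower and 368 higher at 0.2, and 93 and 52 at 0.4. As a share of all genes with a count, 7.04% were called lower at 0.1, 4.29% at 0.2 and 0.524% at 0.4. The true variation between pools cannot be estimated from 1 library per group. Without the fold threshold 3254 genes were called lower and 3535 higher, and 3 members were called higher. With the fold threshold alone 2912 genes were past it downwards and 2317 upwards. Total counts shifted every log2 fold change by -0.24, called 21 members lower (HERC6, RSAD2 and ISG12(B) in addition), while the share of all genes called lower went from 8.13% to 11.3%, and raised the lower share of all calls from 65.0% to 78.8%. The members' median was -1.18 with total counts, -0.73 with 5 counts added and -0.80 over members with at least 10 counts. STAT2 turned to -0.22 with total counts and to -0.0023 with TMM, and with total counts IFIT1 turned to -0.10 and ISG20L2 to -0.0029. Of 39 members followed singly, EIF2AK2 lost its call with 5 counts added. Summing OAS1 copies was not run, because the table has 1 OAS1 row. No paired analysis was possible because each group has 1 mRNA library. Depth limits the members with few counts, whose intervals span several log2 units.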
